A study of Mus musculus with 40 samples.

Results

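A set of 8 genes that code for hormones and other secreted metabolic proteins of the liver was followed through the maps of a corepressor complex in fed mouse liver. The members were Fgf21, Gdf15, Angptl4, Angptl8, Fetub, Ahsg, Inhbe and Hamp, 8 of the 21938 protein-coding genes considered. A peak was counted at a member when its centre lay in the gene or within 50 kb of it, and each peak went to whichever protein-coding gene had its transcription start site (TSS) nearest. By this rule 29 of 10654 SMRT peaks, 72 of 35138 NCoR peaks and 36 of 14462 HDAC3 peaks lay at the 8 loci.

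The study used chromatin immunoprecipitation followed by sequencing (ChIP-seq), in which antibodies pull down crosslinked DNA and the bound stretches are read as peaks. It held 40 samples in 18 groups, and the 3 peak lists used here drew on 9 of them, 3 libraries each for SMRT, NCoR and HDAC3. The labels give a single input library, chromatin without an antibody, for the fed wild-type SMRT, NCoR and HDAC3 libraries together. All 9 came from whole livers of ad libitum fed male C57BL/6 mice that carried floxed Bcl6 alleles (Bcl6 fl/fl) without a deletion, labelled as wild type, 3 animals for each antibody according to the methods of the study. The other 31 samples, among them the knockout, fasted, histone mark and input libraries, entered no comparison here, so the values describe 1 genotype in 1 feeding state. Whole liver also holds cells other than hepatocytes, which a peak list cannot tell apart, and neither the age of the animals nor the read depth was given in the sources used here.

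Each list pooled its 3 libraries and gave positions only, with no height, score or value for each animal. A peak was therefore present or absent in a list, and no error between animals could be computed. The intervals given with percentages are exact (Clopper-Pearson) 95% binomial intervals and cover counting error only. Messenger RNA and protein were not measured in these libraries, and markers of the tissue could not be checked from positions.

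SMRT and NCoR are large, related corepressors that bind nuclear receptors and BCL6, and they recruit and activate the histone deacetylase HDAC3, which removes acetyl groups from histones. Hepatocytes release many proteins that act on other tissues, often called hepatokines, and several are switched by feeding, fasting, stress or iron. FGF21 is a fasting and protein-restriction hormone that acts through FGFR1 with the coreceptor beta-Klotho. GDF15 is a stress hormone that reduces appetite through GFRAL in the hindbrain. ANGPTL4 and ANGPTL8 control lipoprotein lipase, fetuin A (Ahsg) and fetuin B (Fetub) are abundant plasma proteins, Inhbe codes for the subunit of activin E, and Hamp codes for hepcidin, the hormone that blocks iron export through ferroportin.

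An NCoR peak with a SMRT centre and an HDAC3 centre at most 200 bp away was called a shared site, and there were 22 of these at the 8 loci. The DNA of the shared site nearest to each member's TSS is printed below because the later results on position and motifs turn on these stretches. For Gdf15 the nearest one fell mostly in an untranslated region, so the next nearest is shown, a choice made after its position was seen. For Hamp the only shared site in the window had the TSS of Usf2 as its nearest. All are plus-strand sequence of GRCm38 (mm10) as given by RefSeq, over the deposited NCoR intervals, and capitals mark matches to the motifs described further on.
Fgf21, chr7:45610923-45611151: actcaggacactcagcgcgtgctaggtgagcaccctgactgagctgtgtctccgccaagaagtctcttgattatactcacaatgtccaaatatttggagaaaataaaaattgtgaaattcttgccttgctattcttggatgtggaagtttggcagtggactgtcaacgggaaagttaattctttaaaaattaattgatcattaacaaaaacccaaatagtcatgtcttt
Gdf15, chr8:70634264-70634492: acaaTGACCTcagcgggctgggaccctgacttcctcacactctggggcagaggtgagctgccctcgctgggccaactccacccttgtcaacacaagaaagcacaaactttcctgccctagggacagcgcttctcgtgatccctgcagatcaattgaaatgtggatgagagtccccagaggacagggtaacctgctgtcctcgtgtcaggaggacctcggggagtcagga
Angptl4, chr17:33779294-33779522: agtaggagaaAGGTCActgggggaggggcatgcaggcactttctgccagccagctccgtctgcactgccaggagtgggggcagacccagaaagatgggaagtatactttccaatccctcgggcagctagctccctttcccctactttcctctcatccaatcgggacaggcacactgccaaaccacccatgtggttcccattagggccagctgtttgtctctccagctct
Angptl8, chr9:21835274-21835502: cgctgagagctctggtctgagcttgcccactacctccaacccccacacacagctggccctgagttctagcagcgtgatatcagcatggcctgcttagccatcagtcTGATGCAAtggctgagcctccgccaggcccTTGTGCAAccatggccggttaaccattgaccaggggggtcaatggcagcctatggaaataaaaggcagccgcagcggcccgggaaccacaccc
Fetub, chr16:22922497-22922725: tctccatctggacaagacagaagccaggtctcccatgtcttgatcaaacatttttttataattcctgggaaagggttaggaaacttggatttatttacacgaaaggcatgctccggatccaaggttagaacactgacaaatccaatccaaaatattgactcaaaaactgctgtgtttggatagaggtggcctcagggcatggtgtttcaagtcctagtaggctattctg
Ahsg, chr16:22891805-22892033: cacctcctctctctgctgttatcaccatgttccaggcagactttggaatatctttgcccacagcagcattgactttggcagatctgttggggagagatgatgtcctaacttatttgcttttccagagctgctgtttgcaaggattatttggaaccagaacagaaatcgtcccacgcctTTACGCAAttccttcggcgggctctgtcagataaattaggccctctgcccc
Inhbe, chr10:127355405-127355633: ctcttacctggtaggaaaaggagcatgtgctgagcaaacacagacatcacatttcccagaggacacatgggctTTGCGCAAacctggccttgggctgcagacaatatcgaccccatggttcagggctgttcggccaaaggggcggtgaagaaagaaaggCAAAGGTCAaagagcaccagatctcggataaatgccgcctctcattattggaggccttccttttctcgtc
Hamp, chr7:30954163-30954391: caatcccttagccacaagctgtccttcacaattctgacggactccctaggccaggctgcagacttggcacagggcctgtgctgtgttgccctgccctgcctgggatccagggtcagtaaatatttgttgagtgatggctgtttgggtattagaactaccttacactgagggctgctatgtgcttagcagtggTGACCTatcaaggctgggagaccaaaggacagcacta

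Fgf21 and Hamp had NCoR without either partner over their own promoters, and their RefSeq promoters are shown for comparison with the shared sites. These are the 250 bases before the RefSeq start of each gene, on the minus strand.
Fgf21 promoter, chr7:45615491-45615740: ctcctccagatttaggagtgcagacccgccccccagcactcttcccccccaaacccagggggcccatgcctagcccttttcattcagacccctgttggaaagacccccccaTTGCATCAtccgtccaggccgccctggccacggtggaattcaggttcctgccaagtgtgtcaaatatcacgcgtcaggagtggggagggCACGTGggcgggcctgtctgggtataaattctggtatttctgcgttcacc
Hamp promoter, chr7:30944030-30944279: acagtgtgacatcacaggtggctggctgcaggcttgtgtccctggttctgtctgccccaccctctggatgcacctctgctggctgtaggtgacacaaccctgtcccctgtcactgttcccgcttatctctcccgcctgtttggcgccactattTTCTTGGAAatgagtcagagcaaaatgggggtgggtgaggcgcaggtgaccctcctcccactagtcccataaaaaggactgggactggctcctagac

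All 8 members had at least 1 shared site in their window, as did 39.2% of all protein-coding genes. Among genes of at most 20 kb, which is closer to the length of the members, the share was 33.3%. Of the 8 members, 7 (all except Hamp) had a shared site with their own TSS as the nearest, beside 20.9% of all genes and 13.4% of genes of at most 20 kb. Assignment to the nearest TSS had no limit on distance, so over all genes it also took in peaks outside the windows. Where only genes with an NCoR peak nearest to their TSS were counted, 42.6% had a shared site nearest to it, and all 8 members were in that group. The same 7 members had a shared site within 10 kb of their TSS, which 11.9% of genes had.

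**Figure D1:**
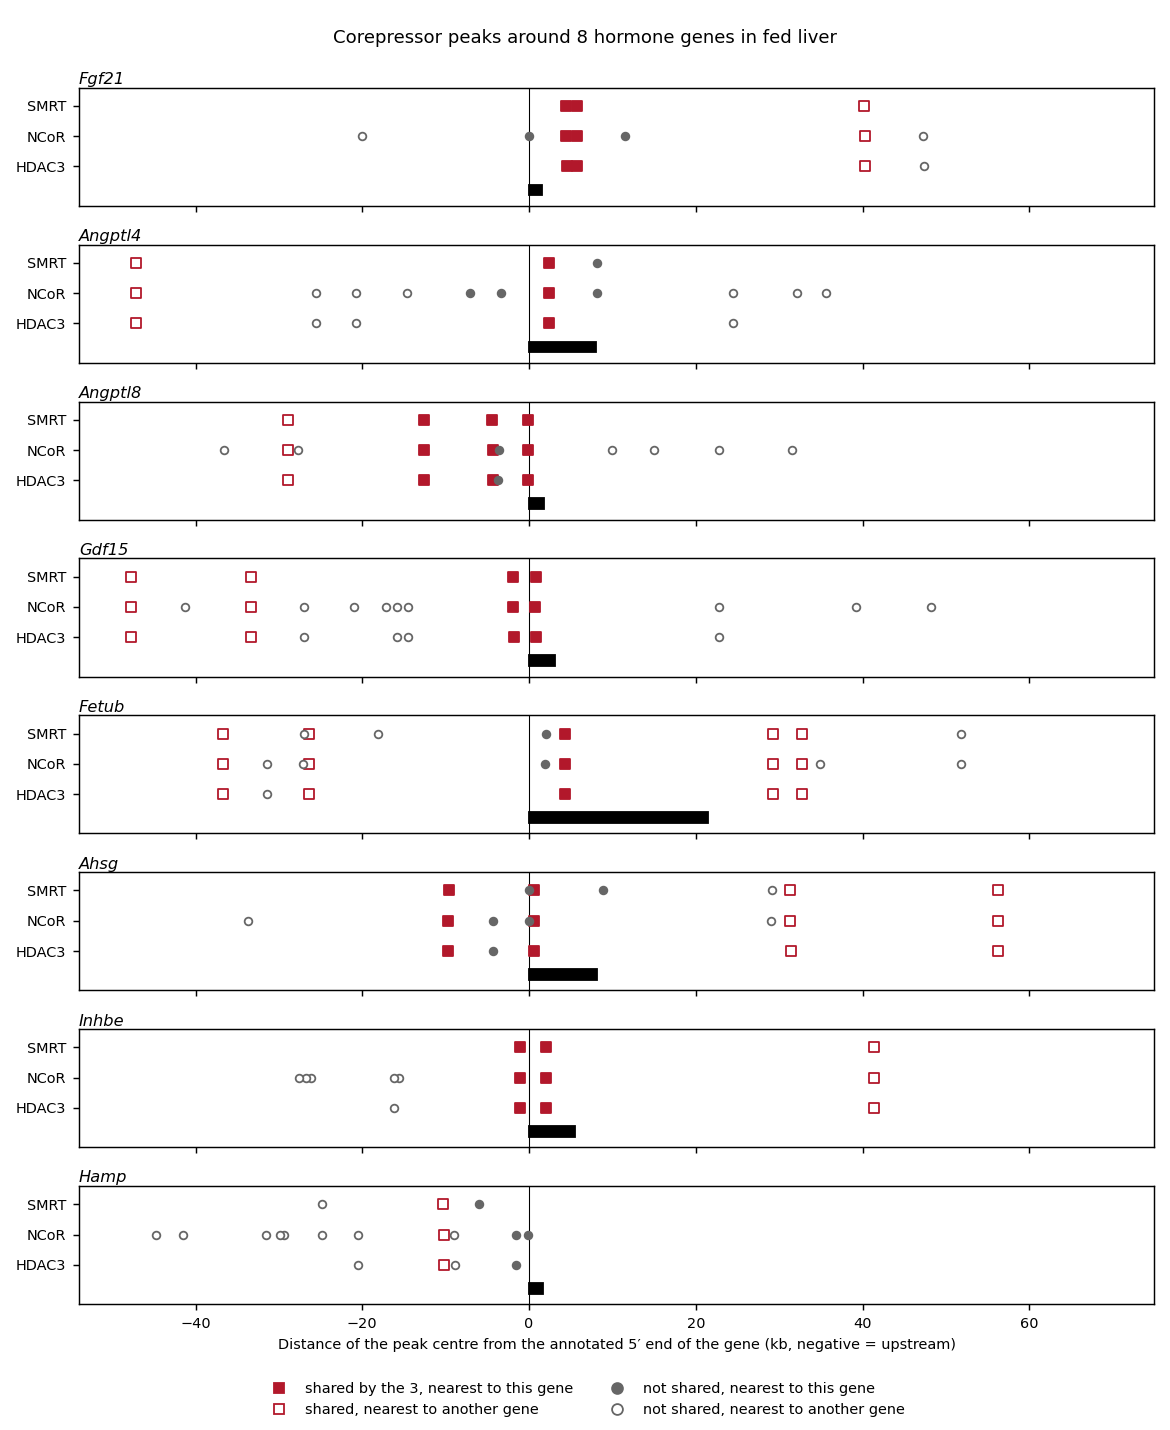
Peak centres of SMRT, NCoR and HDAC3 along the 8 loci, with the horizontal axis giving distance from the annotated 5′ end of the gene in kb and the black bar giving the gene. Red squares are sites shared by the 3 cofactors, grey circles other peaks, and filled symbols have the named gene's TSS as the nearest; 7 of the 8 panels, all but Hamp, hold filled red squares.

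Fgf21 (ENSMUSG00000030827.5, chr7:45613886-45615490, minus strand) is a compact gene of 1605 bp. Its window held 3 SMRT, 7 NCoR and 4 HDAC3 peaks, and 3 of the NCoR peaks were shared sites. A pair of shared sites, 1351 bp apart, lay downstream of the gene at +4453 and +5804 from the TSS, which placed them 2849 and 4200 bp past its 3′ end in intergenic DNA. The promoter itself carried NCoR without a partner at -62, and a further NCoR peak without a partner lay at +11555. Both cofactor partners were thus found behind Fgf21 and neither at its start. The remaining shared site was in intron 1 of Bcat2, which codes for the mitochondrial aminotransferase of branched-chain amino acids, at +2333 from the Bcat2 TSS and 40288 bp from that of Fgf21. An NCoR peak with HDAC3 only lay at -1964 of Bcat2, and 1 without a partner had Mamstr as its nearest gene.

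Gdf15 (ENSMUSG00000038508.7, chr8:70629393-70632456, minus strand) had the most NCoR peaks of the 8 windows, though with 25 kb on either side it had 7 and Angptl4 had 8. There were 13, with 4 SMRT and 8 HDAC3 peaks, and 4 of the 13 were shared sites. Gdf15 itself was the nearest gene for 2 NCoR peaks, and both were shared. The first was centred at +397 from the nearest of its annotated TSSs, in sequence annotated as UTR, 758 bp downstream of the gene's annotated 5′ end. The other lay upstream at -1922. The Gdf15 promoter window, from 1000 bp upstream to 100 bp downstream of a TSS, held no NCoR centre.

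Many of the peaks around Gdf15 belonged to its neighbour Pgpep1, a pyroglutamyl peptidase gene. Pgpep1 was nearest to 6 of the 13 NCoR peaks, of which 1 (at -6055) was a shared site, 3 had HDAC3 only and 2 had no partner. The last shared site in the window was at +6765 of Lsm4, which codes for a core protein of small nuclear ribonucleoproteins. Neither NCoR peak assigned to Isyna1 had a partner, and the peak at the Ssbp4 promoter (-768) had HDAC3 only.

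Angptl4 (ENSMUSG00000002289.16, chr17:33773750-33781830, minus strand) codes for an inhibitor of lipoprotein lipase that is a classical target of PPAR receptors. Its window held 3 SMRT, 11 NCoR and 5 HDAC3 peaks but only 2 shared sites. The single shared site of Angptl4 itself lay inside the gene, in intron 3, at +2422. At +8153, centred 73 bp past the 3′ end of the gene, NCoR was joined by SMRT only. Upstream, NCoR was present without a partner at -3310 and -7074. Angptl4 therefore showed 3 classes among 4 NCoR peaks, and its promoter held none.

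The study's PCR on immunoprecipitated DNA used antibodies to BCL6, PPARα or PPARδ, not to SMRT, NCoR or HDAC3. The stretch between its primers near Angptl4 could be located in GRCm38. It was the 78 bp interval chr17:33779476-33779553, centred at +2316 from the GENCODE TSS. The product overlapped the deposited NCoR interval of the intron 3 site by 47 bp and the SMRT and HDAC3 intervals by 27 bp each. Its centre was 106 bp from the NCoR centre and 118 bp from each of the other centres. The PCR product thus sat on the edge of the only shared site assigned to Angptl4.

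Other genes in the Angptl4 window had mainly NCoR with HDAC3 or NCoR without a partner. Of the 3 peaks assigned to Rab11b, which codes for a vesicle GTPase, 2 had no partner and 1 had HDAC3. Of the 3 assigned to Kank3, 1 had no partner and 2 had HDAC3. The second shared site of the window, at +4450 in intron 2 of Ndufa7, was 47192 bp from the Angptl4 TSS and was assigned to that gene of respiratory complex I.

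Angptl8 (ENSMUSG00000047822.8, chr9:21835510-21837347, plus strand) codes for a feeding-induced regulator of lipoprotein lipase, and the gene lies within Dock6. Its window held 4 SMRT, 11 NCoR and 5 HDAC3 peaks, 4 of them shared sites. There were 3 shared sites that had the Angptl8 TSS as the nearest, the highest number among the members, and 4.33% of all genes had at least as many. The closest covered the promoter, at -122, where the SMRT centre was 13 bp and the HDAC3 centre 0 bp from that of NCoR. The others were at -4356, in a coding exon of Dock6, and at -12613, in Dock6 intron 26. Another NCoR peak, at -3634, also in a Dock6 exon, had HDAC3 only.

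The 4 NCoR peaks of the window that had a Dock6 TSS as the nearest, on the other side of Angptl8, carried neither SMRT nor HDAC3. Their positions were +7234, +2128, -5697 and -14360 from the Dock6 TSS. The remaining shared site of the window was in Dock6 intron 41 but lay closest to Kank2, at -7834. Upstream of Angptl8, 5 of the 7 NCoR peaks in the window had a partner, whereas 0 of the 4 downstream did. This split by side was not planned beforehand, and 56.1% of all NCoR peaks had no partner. Since Angptl8 lies within Dock6, the assignment rests on distance alone.

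Fetub (ENSMUSG00000022871.13, chr16:22918334-22939778, plus strand) and Ahsg (ENSMUSG00000022868.6, chr16:22891277-22899449, plus strand) are neighbours, and their windows held 7 NCoR peaks in common. The Fetub window had 9 SMRT, 10 NCoR and 6 HDAC3 peaks, with 5 shared sites, the most of the 8. The Ahsg window had 7 SMRT, 8 NCoR and 5 HDAC3 peaks, with 4 shared sites. Shared sites were 5 of 10 and 4 of 8 NCoR peaks, the highest share among the members. Only 1 NCoR peak in each window had no partner, at +2136 of Hrg in the first and at a promoter of Dnajb11, nearest to Tbccd1, in the second.

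Ahsg was nearest to 4 NCoR peaks, each of them with a partner. Shared sites lay at -118 from an annotated TSS within the gene, which is 642 bp downstream of the gene's annotated 5′ end, and upstream at -9675. The peak at that 5′ end, at -2, had SMRT only, and the peak at -4336 had HDAC3 only. Downstream, at +8131, chr16:22900064-22900276, SMRT was listed without NCoR or HDAC3. Fetuin B inhibits a protease that acts on the egg coat and is also counted among the hepatokines. Fetub had SMRT and NCoR at -31 from a TSS within the gene, 1951 bp downstream of its annotated 5′ end. It also had a shared site in intron 1 at +866.

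The fetuin cluster continued into Hrg, which codes for histidine-rich glycoprotein, a related plasma protein of the cystatin superfamily. Hrg had shared sites at its promoter (-56) and at -3510, the latter within both windows. It was also nearest to an NCoR peak with SMRT only at +19055. All 3 genes of the cluster thus had a shared site within 1000 bp of a TSS. Of the 5 NCoR peaks with SMRT only at the 8 loci, 3 were in this cluster. For the Fetub peak at -31 the SMRT centre was 102 bp away, outside the alternative limit of 100 bp.

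Inhbe (ENSMUSG00000047492.5, chr10:127348857-127354411, minus strand) had 3 SMRT, 8 NCoR and 4 HDAC3 peaks in its window, and 3 shared sites. Both NCoR peaks assigned to Inhbe were shared, upstream at -1108 and within the gene at +1986, in sequence annotated as UTR, 3094 bp apart. No NCoR centre fell in the Inhbe promoter window. Inhbc, the adjacent gene for the related activin C subunit, had no shared site assigned to it. Its promoter carried NCoR with HDAC3 (-152), and NCoR without a partner lay at +417. R3hdm2 was nearest to 3 of the NCoR peaks in the window, none of them with a partner, and a shared site lay at -1223 of Mars, the methionyl-tRNA synthetase gene.

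Hamp (ENSMUSG00000050440.8, chr7:30942368-30944032, minus strand) was the member without a shared site of its own. Its window held 3 SMRT, 11 NCoR and 4 HDAC3 peaks, of which 1, or 9.09% of the NCoR peaks, was a shared site. NCoR was listed without a partner at the Hamp promoter (-132) and with HDAC3 at -1571, in a UTR of Usf2. SMRT was listed without NCoR or HDAC3 at -6060, chr7:30949986-30950198, in intron 7 of Usf2. All 3 cofactors were thus found in the neighbourhood of Hamp but not together at a site assigned to it.

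The shared site of the Hamp window lay in intron 7 of Usf2, a gene for an E-box binding factor, at +2480 from the Usf2 TSS and -10245 from that of Hamp. Usf2 was also nearest to 2 peaks of NCoR with HDAC3 only. Farther upstream, the 4 peaks of the window assigned to Fam187b lacked partners, and Lsr, a lipoprotein receptor gene, had 1 peak with SMRT only and 1 without a partner. Only uniquely mapped reads had been kept, and mice carry a near copy, Hamp2 (chr7:30922372-30924681), with 0 NCoR peaks within 5 kb. Of the stretches of 75 bases, the read length, in Hamp and the 1000 bp upstream of it, 12.5% also occurred within 10 kb of Hamp2, but 0 of 155 in the Hamp promoter peak did. The part of read mapping in the counts at Hamp was otherwise not tested.

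Over the 8 loci together, 22 of 72 NCoR peaks were shared sites (30.6%, 20.2 to 42.5), beside 24.9% of all NCoR peaks. A further 14 (19.4%, 11.1 to 30.5) had HDAC3 only, beside 14.8%, and 5 (6.94%, 2.29 to 15.5) had SMRT only, beside 4.16%. The remaining 31 (43.1%, 31.4 to 55.3) had no partner, beside 56.1% of the list. Peaks of neighbouring positions are not independent, so the intervals understate the uncertainty. SMRT was listed without another cofactor at 2 of 29 peaks (6.9%, 0.846 to 22.8), those near Ahsg and Hamp, where the list had 3.35%. No HDAC3 peak was listed without another cofactor, 0 of 36 with an upper limit of 9.74%, where the list had 2.95%.

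The classes were not spread evenly within the windows. Of the 24 NCoR peaks that had a member's TSS as the nearest, 13 (54.2%) were shared sites and 5 (20.8%) had no partner. Of the 48 that had a neighbour's TSS as the nearest, 9 (18.8%) were shared and 26 (54.2%) had no partner. The 5 peaks without a partner at members were the promoter and +11555 peaks of Fgf21, both upstream peaks of Angptl4 and the promoter peak of Hamp. No test was made of this difference, since the members had been chosen with results from these lists known. The same share was not computed over the peaks of other liver-secreted genes, which varied. Of the NCoR peaks nearest to their TSS, 8 of 9 were shared for Tsku and 0 of 1 for Rbp4.

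**Figure D2:**
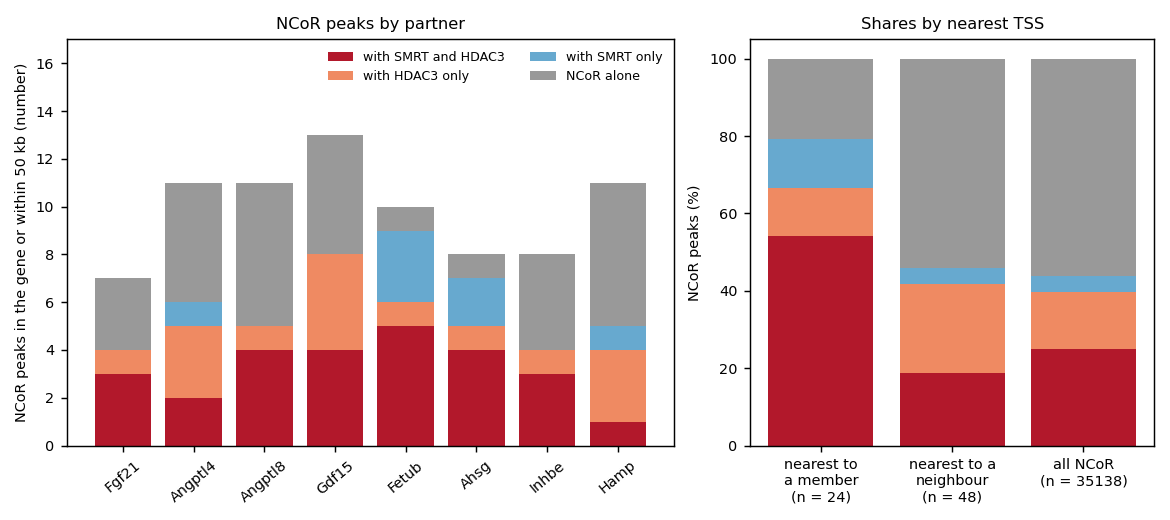
Left, number of NCoR peaks in each member's window, stacked by the partners found within 200 bp. Right, the same classes in percent for the 24 peaks nearest to a member, the 48 nearest to a neighbour and the whole list of 35138 NCoR peaks; the shared part is 54.2% of the first bar, 18.8% of the second and 24.9% of the third.

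Distance to the TSS differs between classes over the whole list, so the peaks assigned to members were also set out by distance. Within 1 kb of the TSS, 4 of 8 were shared (Gdf15, Angptl8, Fetub and Ahsg), where 14.0% of all NCoR peaks at that distance were. From 1 to 10 kb, 8 of 14 were shared, beside 26.1%. From 10 to 50 kb, 1 of 2 was shared, the Angptl8 site in Dock6 intron 26, beside 26.3%. The share was above that of the list in each of the 3 distance ranges, with few peaks in each.

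NCoR was centred in the promoter window of 5 of the 8 members, namely Fgf21, Angptl8, Fetub, Ahsg and Hamp, as it was for 16.9% of genes. A shared site was centred there for Angptl8 and Ahsg, 2 of 8, beside 2.34% of genes. At least 2 shared sites were nearest to the TSS of Fgf21, Angptl8, Gdf15, Ahsg and Inhbe, 5 of 8, beside 9.25% of genes. The 7 members with a shared site of their own fell into 3 arrangements. Angptl8 and Ahsg had the 3 cofactors together in a promoter window, which for Ahsg was that of a TSS inside the gene, Gdf15, Inhbe, Angptl4 and Fetub had them in the gene body or upstream outside the promoter window, and Fgf21 had them past its 3′ end.

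Each member window held more NCoR peaks than the median of other genes, while shared sites varied more. The median number per window over the 8 members was 10.5 NCoR peaks, 3.5 shared sites, 3.5 SMRT peaks and 5 HDAC3 peaks, where the medians over all protein-coding genes were 2, 0, 0 and 1. Gdf15 had the highest count of NCoR peaks at 50 kb, which 2.7% of all genes and 0.925% of genes of at most 20 kb equalled or passed. Fgf21 had the lowest, which 18.3% and 13.5% equalled or passed. For shared sites the order began with Fetub at 5 (2.44% of genes had at least as many), then Angptl8, Gdf15 and Ahsg at 4 (5.07%). Fgf21 and Inhbe followed with 3 (10.4%), then Angptl4 with 2 (20.7%) and Hamp with 1 (39.2%). This order depended on the width of the window. With 25 kb on either side Fetub, Angptl8 and Ahsg had 3 each and Gdf15 had 2, and with 100 kb Gdf15 had 10 and Fetub and Angptl8 had 7 each. The windows also held between 2 and 7 other protein-coding genes, and the background counts genes that the liver does not express as well as those it does.

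**Figure D3:**
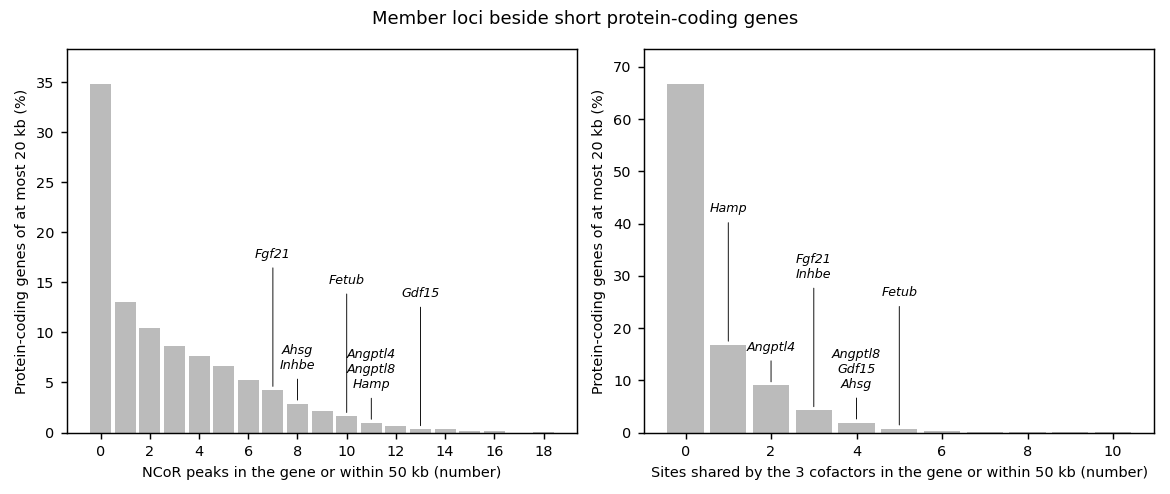
Share of the 11779 protein-coding genes of at most 20 kb that have a given number of NCoR peaks (left) or shared sites (right) in the gene or within 50 kb, with the 8 members marked at their counts. The members lie at 7 to 13 NCoR peaks and at 1 to 5 shared sites, and Fetub, at 21445 bp, is itself slightly longer than the limit.

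The centres of the 3 cofactors lay close together at the 22 shared sites. The median distance from the NCoR centre was 17 bp for SMRT, with a maximum of 69 bp, and 18 bp for HDAC3, with a maximum of 73 bp. Over all 8739 shared sites the medians were 23 and 21 bp and the maxima 195 and 196 bp. At the Angptl4 intron 3 site both partners were offset by 12 bp to the same side, and at the Gdf15 site at +397 both were offset by 30 bp. The widest SMRT offsets, 69 bp, were at the Fgf21 site at +5804 and the Bcat2 intron, and the widest HDAC3 offset, 73 bp, was at the Hrg promoter. None of the 22 had a partner centre over 100 bp away.

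**Figure D4:**
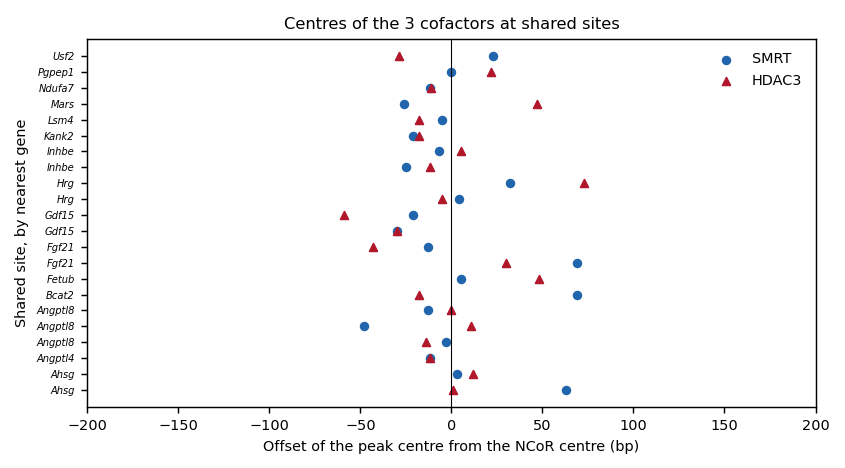
Distance in bp of the SMRT centre (circles) and the HDAC3 centre (triangles) from the NCoR centre at each of the 22 shared sites, named by the gene with the nearest TSS. The horizontal axis spans the 200 bp to either side that count as shared, and every point lies within 73 bp of 0.

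The NCoR intervals were searched for 12 motifs on both strands, and each match is a match of letters only. The motifs spelled out were BCL6/STAT (TTCNNNGAA), FOX (TGTTTAC), E-box (CACGTG), the cyclic AMP response element CRE (TGACGTCA), ATF4 (TGATGCAA, the composite element of ATF4 with C/EBP proteins) and the nuclear receptor half-site (AGGTCA). The HNF4 half-site was searched as CAAAGGCCA, CAAAGGTCA, CAAAGTCCA or CAAAGTTCA, HNF6/CUX2 as TATCGATC, TATCGATT, TATTGATC or TATTGATT, and C/EBP as TTACGCAA, TTATGCAA, TTGCGCAA or TTGTGCAA. DR1 (a direct repeat bound by PPAR with RXR and by HNF4), RORE/REV-ERB and CTCF were searched as longer consensus strings. The HNF4 half-site can lie within DR1, and 1 of its forms holds the nuclear receptor half-site, which was added after the sequences had been seen.

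Among the 12 motifs searched, the ATF4 string stood furthest above its share in the list, on few peaks. No test was made that allowed for picking it from the 12. It was found in 5 of 72 NCoR peaks (6.94%), beside 1.78% of all NCoR peaks and 0.792% of 32817 RefSeq promoters, which are windows of 300 bases rather than 229. Of the 24 peaks assigned to members, 4 held it, 1 each at Fgf21, Angptl8, Ahsg and Inhbe. In the Fgf21 promoter printed above it reads TTGCATCA on the strand of the gene, under NCoR without a partner. In the Angptl8 promoter it reads TGATGCAA, under a shared site that also held the C/EBP form TTGTGCAA. The Ahsg match was in the shared site at -9675 and the Inhbe match in the shared site at +1986, and the fifth was in a Pgpep1 UTR with HDAC3 only. ATF4 is the transcription factor of the amino acid and stress response, for which Fgf21 and Gdf15 are known targets, and the Gdf15 peaks held no match to this string.

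C/EBP strings were found in 5 of 72 peaks (6.94%, beside 5.84% of the list). Of the 22 shared sites 4 held one, beside 8.23% of all shared sites. These 4 were the Angptl8, Ahsg and Hrg promoters and the Inhbe site at -1108, which also held an HNF4 half-site. E-boxes were found in 6 peaks (8.33%, beside 4.77%), none of them a shared site, where 4.52% of all shared sites held one. The Fgf21 promoter peak held CACGTG as well as the ATF4 string, and the peak past the 3′ end of Angptl4 held 2 E-boxes. The HNF4 half-site matched 6 of the 72 (8.33%, beside 8.31%), FOX in 3 (4.17%, beside 8.36%), HNF6/CUX2 in 3 (4.17%, beside 5.96%) and RORE/REV-ERB in 2 (2.78%, beside 3.31%).

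BCL6/STAT strings were found in 7 of 72 peaks (9.72%), beside 8.07% of the list and 7.01% of RefSeq promoters. Of the 7, 4 were in the Hamp window, including TTCTTGGAA in the Hamp promoter peak, where NCoR had no partner. Hepcidin is known to be induced by interleukin-6 through STAT3. None of the 22 shared sites held the string, where 9.03% of all shared sites did. DR1 was found in 1 of 72 peaks (1.39%, beside 1.64%), an NCoR peak without a partner in Pgpep1 intron 2. None of the 22 shared sites held it, where 1.74% of all shared sites did. A missing string says only that these letters were not in the interval.

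The half-site AGGTCA was found in 24 of 72 peaks (33.3%, beside 38.3% of the list) and in 8 of 22 shared sites, beside 41.8% of all shared sites. It reads AGGTCA near the start of the Angptl4 intron 3 interval and TGACCT in the Gdf15 site at -1922 and the Usf2 intron. CRE was found in 1 peak (1.39%, beside 0.62%), in the Rasip1 intron of the Fgf21 window, and CTCF in 1 (1.39%, beside 0.62%), the Pgpep1 peak that held DR1. In base composition the 22 shared sites had a median GC content of 51.5%, beside 47.2% over all shared sites. The sequences of the Fgf21 and Fetub shared sites printed above held none of the 12 strings. The other shared site of Fgf21, at +5804, held an HNF6/CUX2 string and the half-site on each strand.

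Receptors and regulators of the members were counted by the same rule in a list of 17 genes. Of these, 13 had a shared site in the window and 10 had one nearest to their own TSS, with medians of 6 NCoR peaks and 1 shared site per window. Klb, which codes for the FGF21 coreceptor beta-Klotho, had the most shared sites, with 5 among 13 NCoR peaks. Hjv (hemojuvelin, listed as Hfe2 in the annotation) and Bmp6, both of which act upstream of hepcidin, had 4 each. Lipoprotein lipase (Lpl), the target of the ANGPTL proteins, had 3 shared sites among 5 NCoR peaks, and ferroportin (Slc40a1), the target of hepcidin, had 2 among 6. Gfral, the GDF15 receptor, had 1 NCoR peak, which was a shared site nearest to its TSS, and Ret, its signalling partner, had none. The last 4 were named for their roles and not by count, after their values had been seen.

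In a list of 20 other liver-secreted proteins, 16 had a shared site in the window and 16 had one nearest to their own TSS. The genes were not all the same, since assignment had no limit on distance. Inhba had 0 shared sites in its window and 5 nearest to its TSS, while Inhbc had 3 and 0. The medians per window were 5 NCoR peaks and 2 shared sites. Tsku, which codes for the secreted protein tsukushi, had 10 shared sites among 14 NCoR peaks, above every member. Fgl1 (hepassocin) had 6 among 8, and Smoc1 and Itih3 had 5 among 12 each. The member medians of 10.5 NCoR peaks and 3.5 shared sites were above those of both lists, while all 3 sets had a higher share of genes with a shared site nearest to the TSS than the 20.9% of all genes. These lists differ in gene length, with 10 of the 17 receptors and regulators and 4 of the 20 secreted proteins over 20 kb, and longer genes have wider windows.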

How the data were processed

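SMRT, NCoR and HDAC3 were profiled by ChIP-seq in livers crosslinked with disuccinimidyl glutarate and formaldehyde. According to the methods of the study and the submitters' processing notes, the authors aligned single-end reads of 75 bases to mm10 with Bowtie, kept uniquely mapped reads and 1 read per position, and called peaks with HOMER on the pooled libraries of each cofactor against input. Peaks that passed the authors' fold and false discovery thresholds with DESeq2 on the individual libraries were kept. The deposited lists held chromosome, start and end only, with 1 fixed interval length per list (end minus start, 228 bp in the NCoR list and 212 bp in both others). Read depth is not given in the sources used here, so a shorter list cannot be told apart from a shallower one.

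From the lists, centres were placed on the GENCODE vM21 basic annotation of GRCm38, in windows of 50 kb on either side of each gene, with pysam, pandas, numpy and scipy (versions 0.24.0, 2.3.3, 2.4.6 and 1.17.1) under Python 3.11.15. Two-sided exact 95% intervals were computed for shares of peaks, and no hypothesis test was run. Partners were centres at most 200 bp away, as in the study, and a promoter was the stretch 1000 bp before to 100 bp after any annotated TSS. Distances are signed by the strand of the gene. Coordinates are printed as deposited, and NCoR sequences cover the 229 bases from start to end, both counted, from the RefSeq GRCm38 genome. RefSeq promoters were given for 7 of the 8 members. The scripts were checked on simulated peaks with known positions and classes.

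The members and the lists of other genes were chosen with earlier results of these data known. All 8 members are named with their values, and every shared site in a window is given. Sequence is shown for the shared site nearest to each member's TSS (for Gdf15 the next nearest, because the nearest lay mostly in a UTR), neighbours are named where their TSS is the nearest, and the 3 genes with the most shared sites are named from each further list, with ties kept. The AGGTCA motif and 2 further alternatives were added after the data were seen. The alternatives tried were windows of 25 and 100 kb, partners within 100 or 400 bp, other denominators and gene sets, and motif searches in the central 100 bp or without repeats.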

Additional observations from a re-analysis of the deposited data

How the results depend on the processing

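No paired analysis was possible because the deposited positions come from pooled libraries without values for single animals, and no replicate could be left out for the same reason. Of 108 alternative values for the main counts and shares, 92 stayed close to the value reported, and of 120 for single genes 107 did. Close meant counts within 1.5 times and shares within their exact interval. Many of these values could not have changed. Assignment to the nearest TSS did not use the window width, and numbers of peaks did not depend on the partner distance. The tally is therefore no measure of how stable the results were. With windows of 25 kb the loci held 46 NCoR peaks, the median number of shared sites per member fell to 2, and 28.5% of all genes and 21.9% of genes of at most 20 kb had a shared site. For single genes, 25 kb lowered the NCoR count of Hamp to 6, Gdf15 to 7, Angptl8 to 7, Inhbe to 4 and Fetub to 5, and the shared sites of Gdf15 to 2, Fetub to 3 and Angptl4 to 1, while 100 kb raised NCoR to 27 at Gdf15, 18 at Angptl8 and 17 at Inhbe, and shared sites to 10 at Gdf15 and 7 at Angptl8. With windows of 100 kb there were 112 NCoR peaks, and the shares of all genes and of genes of at most 20 kb with a shared site were 52.9% and 47.8%. Partners within 100 bp lowered the share of all genes to 38.5%. The 22 shared sites made up 75.9% of SMRT peaks and 61.1% of HDAC3 peaks at the loci. Genes of at most 10 kb had a shared site in 29.9% of cases, and those of at most 20 kb with an NCoR peak in the window in 51.0%. Limiting all genes to those with an NCoR peak nearest to the TSS, an alternative chosen after seeing the data, raised the share with a shared site nearest to it from 20.9% to 42.6%. In the central 100 bp of the NCoR intervals, 3 peaks each (4.17%) held BCL6/STAT, the HNF4 half-site and C/EBP. Over the whole list the shares in that stretch were 3.48%, 4.79% and 3.65%. In each case a narrower or wider stretch, or another denominator, was counted by construction. Positions without heights set the limit on depth: a site missing from a list was below the authors' thresholds, which does not show that the cofactor was absent.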

Other observations

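Among the NCoR peaks inside the member windows, those assigned to some neighbours had no partner. The 4 peaks assigned to Dock6 in the Angptl8 window, the 4 assigned to Fam187b in the Hamp window and the 3 assigned to R3hdm2 in the Inhbe window lacked both SMRT and HDAC3 within 200 bp. These neighbours were picked out after their counts were seen. Of the 48 peaks nearest to a neighbour 54.2% had no partner, beside 56.1% of the list. Peaks of these neighbours beyond the windows were not counted. Pgpep1 and Rab11b, with 6 and 3 NCoR peaks in the windows, had peaks of more than 1 class. CpG-rich intervals (at least 10 CpG dinucleotides) made up 9 of the 72 NCoR peaks at the loci (12.5%, beside 10.6% of the list) and 1 of the 24 assigned to members (4.17%).

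Among the other secreted proteins, Rbp4, which codes for the retinol carrier of plasma, had 4 NCoR peaks and 0 shared sites in its window, and Angptl6 had 5 and 0. Inhbc, next to Inhbe, had 13 NCoR peaks and 3 shared sites in its window, and was nearest to 2 NCoR peaks and 0 shared sites. Insr, the insulin receptor gene from the list of receptors and regulators, had 18 NCoR peaks in its window with 1 shared. These genes were picked out after their counts were seen.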
